A study of Mus musculus with 8 samples.

Results

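Homeobox genes encode transcription factors that bind DNA through a homeodomain, and the closely related paired-box (PAX) genes carry a paired domain, in some members beside a homeodomain. The set described here holds 55 such genes outside the Hox clusters, taken from a given list of names and found in the files by Entrez identifier, out of 36528 identifiers in all. Of the 55, 35 had enough counts to be tested and 20 did not. The RNA was that of primary mouse mesothelial cells taken from the omentum, the fatty apron of the abdomen, whose surface is lined by mesothelium. There were 4 libraries of WT cells and 4 libraries of cells with knockout of BAP1 (BAP1 KO). The labels give no strain, age, sex, allele or treatment, do not say how the knockout was made, and leave unsaid whether libraries of the same genotype are from different animals or cultures.

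BAP1 is a deubiquitinase that removes ubiquitin from histone H2A, a mark that Polycomb repressive complex 1 places. Many homeobox genes are known Polycomb targets that stay silent in most cells of the adult and are active in a few regions of the embryo, where their combinations mark position along the body axes, in limbs, brain and gut. The families differ in their partners: MEIS and PBX proteins bind DNA together with each other and with Hox proteins, LIM homeobox proteins work through LDB adaptors, and sine oculis proteins recruit EYA coactivators. In the mesenchyme that surrounds the gut and forms the spleen and omentum, Barx1, Hlx, Nkx2-5, Nkx3-2 and Meis and Pbx genes are known to be active.

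Library totals ran from 67.1 to 84.9 M counts, more than the read number named in the labels' protocol. Bap1 itself (Entrez 104416) stood at 62.6 to 64.2 CPM (counts per M, with library totals scaled by TMM factors) in WT and 52.0 to 54.0 CPM in BAP1 KO, a log2 fold change of -0.25 ± 0.03 (SE; edgeR adjusted p = 2.1e-09). Since the deleted exons are not named, reads over the remaining exons cannot check the deletion. The 10 mesothelial markers summed to 1126 to 1154 CPM in WT against 1167 to 1179 CPM in BAP1 KO, with 3 higher, 5 lower and 2 that did not pass. Among them Muc16 was at 191% of its WT level and Wt1 at 137%, while Msln was at 43.9%, Krt18 at 38.3% and Krt8 at 33.8%. Markers of other cells were also present: 9 fibroblast and stromal markers summed to 20211 to 21593 CPM across WT and 16178 to 16774 CPM in BAP1 KO, with 8 of the 9 lower and none higher. The 8 macrophage markers summed to 11849 to 12136 and 14145 to 14642 CPM, with 4 higher and 4 lower. For smooth muscle, 6 markers summed to 11896 to 12370 CPM in WT and 12123 to 12310 CPM in BAP1 KO. Of these, 3 were higher, 1 was lower and 2 did not pass. The 5 endothelial markers summed to 28.8 to 29.7 and 18.4 to 19.5 CPM, with 4 lower. The part of these cells in the results below was not tested, and in bulk RNA fewer cells of a type and less RNA per cell cannot be told apart.

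The homeobox genes changed in both directions, neither of the 2 tested PAX genes passed, and the largest changes were rises of genes that were close to silent in WT cells. Among the 35 tested members, 14 rose (40%), 8 fell (22.9%) and 13 did not pass (edgeR's quasi-likelihood test, Benjamini-Hochberg adjusted p below 0.05 over 16929 genes). Over all genes tested 29% rose and 32.1% fell, or 61.1% in either direction, so that the share of members called, 62.9%, was near the background. The median log2 fold change of the tested members was 0.03, beside -0.0046 for all genes tested. Most of the changes were small, with 14 of the 22 called members under 1.5-fold. The same held for 7834 of the 10340 genes called among all genes tested. A change of 2-fold or more was seen in 6: 5 members rose (Irx1, Irx3, Irx5, Lhx2 and Nkx2-5) and 1 fell (Lhx9), where the background is 6.4% of all genes tested in either direction. The 4 BAP1 KO values lay entirely above the 4 WT values in 11 members and entirely below them in 5, together 45.7%, against 53.8% of all genes tested.

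The members were also grouped by level. Of the 12 tested members with a mean under 1 CPM, 6 rose and 2 fell, and 4 of the 6 rose 2-fold or more. Among all genes tested under 1 CPM, 14.4% rose, 21.9% fell and 5.83% rose 2-fold or more. For Irx1 and Irx5 all 4 libraries reached the count minimum in BAP1 KO but not in WT, and for Lhx9 in WT but not in BAP1 KO, so these counts describe the members that passed and support nothing further. Of the 12 members between 1 and 10 CPM, 4 rose and 2 fell, where 20.5% of all genes at that level rose and 40.3% fell. All 11 members of 10 CPM or more stayed within a 1.5-fold change: 4 rose, 4 fell and 3 did not pass, and 69.3% of all genes at that level were called. Of those 6685 called genes, 6115 were also under 1.5-fold. Summed over the 55 members, the RNA was 563 ± 4.51 CPM in WT against 557 ± 8.27 CPM in BAP1 KO (SD, n = 4 each).

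**Figure D1:**
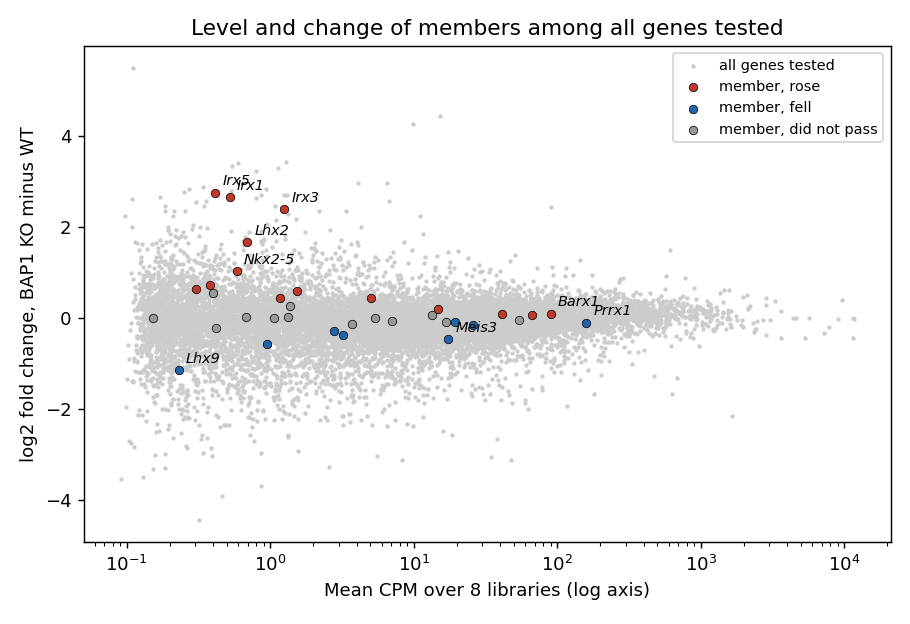
Each point is 1 tested gene, with its mean CPM over 8 libraries on a log axis and its log2 fold change (BAP1 KO minus WT) on the vertical axis; members are coloured by their call and all genes tested are grey. The members at 2-fold or more sit near or below 1 CPM, and the members of 10 CPM or more lie close to 0.

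Per transcript length, the gut mesenchyme gene Barx1 was by far the most abundant member. On the scale of the authors' size-factor adjusted RPKM, levels in WT were 63.2 for Barx1, 21.6 for Prrx1, 14.1 for Pbx2, 12.6 for Hlx, 11.6 for Prrx2, 11.1 for Meis1, 10.01 for Meis2, 8.35 for Meis3, 6.16 for Six2 and 5.63 for Pbx3. The WT ranges of Hlx and Prrx2 overlapped, as did those of Prrx2 and Meis1, and the other neighbours in this order of 10 did not overlap. The next were Six5 at 3.81, Nkx3-2 at 2.96 and Isl1 at 2.80, the latter pair with overlapping ranges. In BAP1 KO the order of the first 10 was the same except that Six2 (6.47) stood above Meis3 (6.12). The BAP1 KO ranges of this pair overlapped, at 6.12 to 7.01 and 5.85 to 6.35. Those of Hlx and Prrx2, Prrx2 and Meis1, and Meis1 and Meis2 overlapped as well. By their means, the genes that dominate the homeobox RNA of these cells held their ranks, apart from Meis3 and Six2.

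**Figure D2:**
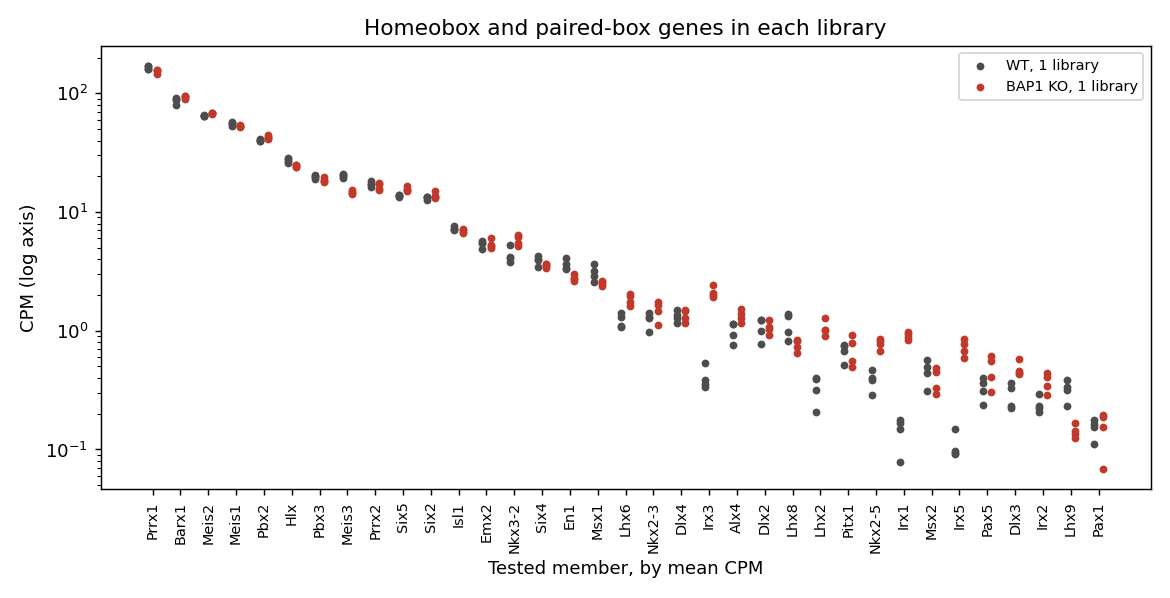
CPM of the 35 tested members on a log axis, ordered by mean level, with 1 point per library (WT grey, BAP1 KO red). The points of a genotype lie close together for the members of 10 CPM or more, and Irx3, Lhx2, Irx1 and Irx5 show separate WT and BAP1 KO clouds at low levels.

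The Iroquois (IRX) genes encode homeodomain proteins of the TALE class and lie in paired clusters, Irx1, Irx2 and Irx4 on chromosome 13 and Irx3, Irx5 and Irx6 on chromosome 8; they pattern neural tissue, heart and limb. The promoter sequences of the IRX and LIM members on which the results turn are shown first, as the 250 bases before a listed RefSeq start (GRCm38.p6). They are printed in the direction of transcription with each CpG in capitals. They were chosen after the values were seen, to set a strong riser (Irx3), its weakly changed relative (Irx2), the strongest LIM riser (Lhx2, the first of its 2 listed starts) and the member that fell most (Lhx9) side by side. Irx3 spans chr8:91801655-91801904 on the minus strand with 13 CpG, Irx2 chr13:72628570-72628819 on the plus strand with 19, Lhx2 chr2:38339031-38339280 on the plus strand with 25, and Lhx9 chr1:138842445-138842694 on the minus strand with 4. The stretches printed for Irx2 and Lhx9 lie inside the RefSeq spans of these genes, chr13:72624430-72634196 and chr1:138825186-138848839, so their listed starts are internal.
Irx3: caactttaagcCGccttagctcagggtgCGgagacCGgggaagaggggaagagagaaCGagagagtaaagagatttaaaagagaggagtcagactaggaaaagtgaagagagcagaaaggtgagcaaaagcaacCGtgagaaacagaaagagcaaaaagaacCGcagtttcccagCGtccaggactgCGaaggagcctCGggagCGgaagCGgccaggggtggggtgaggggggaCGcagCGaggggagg
Irx2: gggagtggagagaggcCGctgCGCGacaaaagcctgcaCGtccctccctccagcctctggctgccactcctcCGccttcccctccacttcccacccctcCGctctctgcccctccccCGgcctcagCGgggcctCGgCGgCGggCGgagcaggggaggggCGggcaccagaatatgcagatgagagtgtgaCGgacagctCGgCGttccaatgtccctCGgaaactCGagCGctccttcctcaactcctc
Lhx2: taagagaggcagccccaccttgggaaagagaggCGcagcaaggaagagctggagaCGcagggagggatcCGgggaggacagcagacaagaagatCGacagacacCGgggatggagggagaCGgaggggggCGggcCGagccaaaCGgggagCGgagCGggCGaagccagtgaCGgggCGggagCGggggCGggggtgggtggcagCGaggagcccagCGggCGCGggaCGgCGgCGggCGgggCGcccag
Lhx9: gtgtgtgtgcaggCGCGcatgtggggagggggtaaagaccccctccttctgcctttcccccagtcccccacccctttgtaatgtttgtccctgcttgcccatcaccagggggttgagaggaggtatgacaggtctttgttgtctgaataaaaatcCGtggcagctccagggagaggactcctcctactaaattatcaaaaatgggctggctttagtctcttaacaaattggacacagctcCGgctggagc

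Irx1, Irx3 and Irx5 rose by more than 5-fold in BAP1 KO, and Irx2 rose by less. Irx1 and Irx5 reached the count minimum in all 4 libraries of BAP1 KO alone, so that being tested at all came from their level there. Irx3 (Entrez 16373; GRCm38 chr8:91798511-91801654) measured 0.384, 0.353, 0.538 and 0.337 CPM in the WT libraries and 2.08, 1.99, 1.94 and 2.41 CPM in the BAP1 KO libraries. Its lowest BAP1 KO library was far above its highest WT library, and the log2 fold change was 2.39 ± 0.15 (SE; adjusted p = 1.7e-14). Values in parentheses from here on are log2 fold changes ± SE with edgeR's Benjamini-Hochberg adjusted p, unless named otherwise. Irx5 (chr8:92357796-92361456), its neighbour 559 kb away, measured 0.148, 0.0941, 0.0965 and 0.0908 CPM in WT libraries and 0.852, 0.591, 0.773 and 0.676 CPM in BAP1 KO, again without overlap (2.75 ± 0.26, adjusted p = 1.5e-10). Irx1 (chr13:71958232-71963723) measured 0.148, 0.176, 0.165 and 0.0779 CPM in WT against 0.967, 0.834, 0.932 and 0.882 CPM in BAP1 KO (log2 fold change 2.65 ± 0.23, adjusted p = 2.3e-11). Irx1 had 6 to 15 counts per WT library and 64 to 76 per BAP1 KO library, Irx5 7 to 10 and 46 to 63, and Irx3 26 to 39 and 144 to 175.

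Irx2, next to Irx1, moved much less. It measured 0.222, 0.294, 0.234 and 0.208 CPM across WT and 0.289, 0.411, 0.442 and 0.345 CPM in BAP1 KO, so that the groups overlapped (0.63 ± 0.25, adjusted p = 0.031). The call was lost without the filter on low counts, with DESeq2, and without WT replicate 1, 3 or 4 or BAP1 KO replicate 2 or 3, where the log2 fold change was 0.53 to 0.64 and the adjusted p 0.058 to 0.11; over its alternatives the adjusted p ran from 0.02 to 0.11. Irx4, the remaining member on chromosome 13, had 1 count in all 8 libraries together. The summed IRX level went from 0.896 ± 0.133 CPM in WT to 4.10 ± 0.208 CPM in BAP1 KO (SD, n = 4 each), 458% of WT.

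Within the IRX clusters the ratio of neighbours was compared by library, as log2 CPM with a prior count of 2. The Irx1 to Irx2 ratio was higher in BAP1 KO by 1.93 on the log2 scale, with -0.69 ± 0.33 (SD) in WT and 1.24 ± 0.31 in BAP1 KO (exact two-sided permutation test, p = 0.029, the smallest that 4 against 4 can give; Benjamini-Hochberg adjusted p = 0.043 over 3 pairs). The Irx3 to Irx5 ratio differed by -0.16 (exact permutation p = 0.66), with 1.68 ± 0.39 in WT and 1.52 ± 0.28 in BAP1 KO. Irx1 and Irx5 entered these pairs through their level in BAP1 KO alone, and the unlike changes of Irx1 and Irx2 were given above. Both comparisons therefore describe the genes that passed and support nothing further. Their flanking genes, added after the values were seen, showed changes in both directions that were smaller than those of Irx1, Irx3 and Irx5. Within 1 Mb of Irx3, Fto, an RNA demethylase gene whose introns are known to hold Irx3 enhancers, had a log2 fold change of -0.02 ± 0.03 (adjusted p = 0.44). Rpgrip1l, a ciliary gene, fell (-0.41 ± 0.06), and Rbl2, an Rb relative, rose (0.08 ± 0.03). On the other side of Irx5, Mmp2, a matrix protease, fell (-0.54 ± 0.02) and Lpcat2 rose (0.24 ± 0.03). Beyond Irx2, Lpcat1 fell (-0.38 ± 0.04) and Clptm1l rose (0.19 ± 0.02). The overlapping antisense gene Irx3os, which shares 124 bases of exon with Irx3 and which this unstranded kit cannot separate there, was itself at 0.0071 CPM in WT libraries and 0.034 CPM in BAP1 KO.

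**Figure D3:**
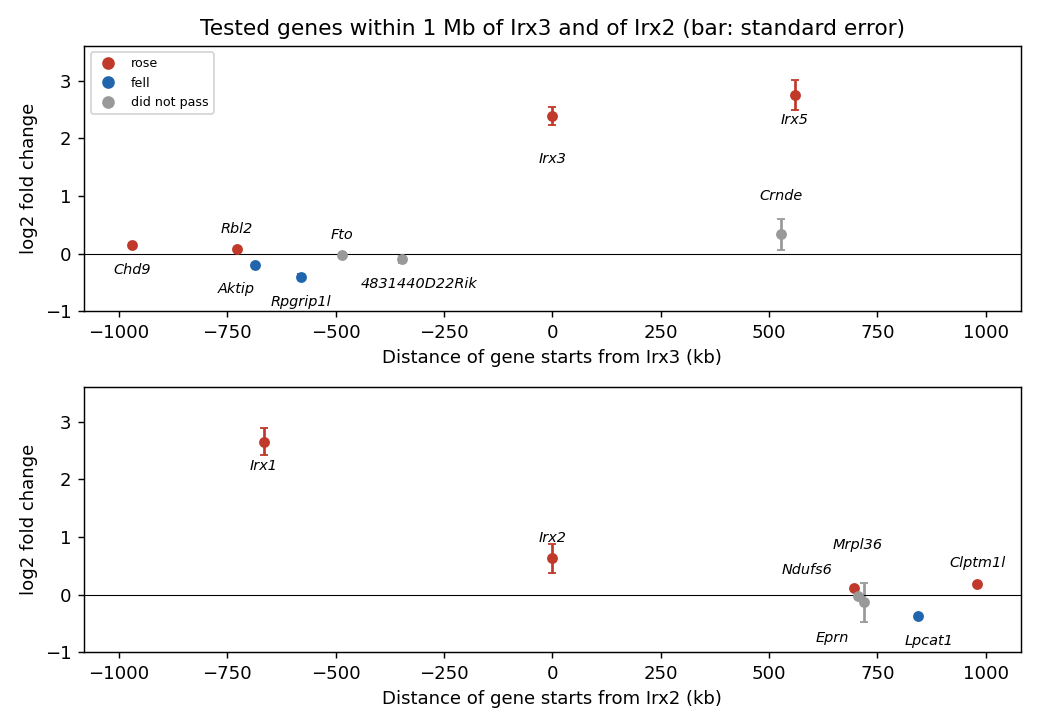
Log2 fold change (BAP1 KO minus WT, with SE) of the tested genes within 1 Mb, against the distance of their starts from Irx3 (upper) and Irx2 (lower) in kb. Irx3, Irx5 and Irx1 stand above 2, Irx2 lies at 0.63, and the other genes lie between -0.41 and 0.33.

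LIM homeobox proteins specify neurons, limb mesenchyme and gonad, and of the 5 tested members of 7, 2 rose, 2 fell and 1 did not pass. Lhx2, which maintains progenitors in forebrain, limb and hair follicle, measured 0.207, 0.318, 0.4 and 0.389 CPM in WT against 1.27, 0.911, 1.02 and 1.02 CPM in BAP1 KO. Every BAP1 KO library was above every WT library, and the log2 fold change was 1.66 ± 0.20 (adjusted p = 1e-08). Lhx6, a gene of interneurons and jaw mesenchyme, measured 1.08, 1.4, 1.3 and 1.1 CPM across WT and 2.04, 1.76, 1.61 and 1.97 CPM in BAP1 KO, also without overlap (0.58 ± 0.12, adjusted p = 0.00014). Lhx8, its close relative, went the other way: it measured 0.976, 1.38, 0.827 and 1.34 CPM in WT libraries and 0.838, 0.655, 0.822 and 0.731 CPM in BAP1 KO, with overlapping groups (-0.58 ± 0.17, adjusted p = 0.0034). Lhx9, which is needed for the gonad to form, measured 0.384, 0.318, 0.234 and 0.337 CPM in WT against 0.144, 0.167, 0.135 and 0.124 CPM in BAP1 KO (log2 fold change -1.15 ± 0.29, adjusted p = 0.0011). Its highest BAP1 KO library was below its lowest WT library, on 9 to 27 counts per library. Isl1, the LIM gene of motor neurons, islets and heart progenitors and the highest of the family per transcript length, was 7.28 ± 0.232 CPM across WT and 6.91 ± 0.246 CPM in BAP1 KO and did not pass (-0.08 ± 0.06, adjusted p = 0.25). The summed level of the 7 LIM genes was 10.3 ± 0.564 CPM in WT libraries and 10.8 ± 0.504 CPM in BAP1 KO.

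**Figure D4:**
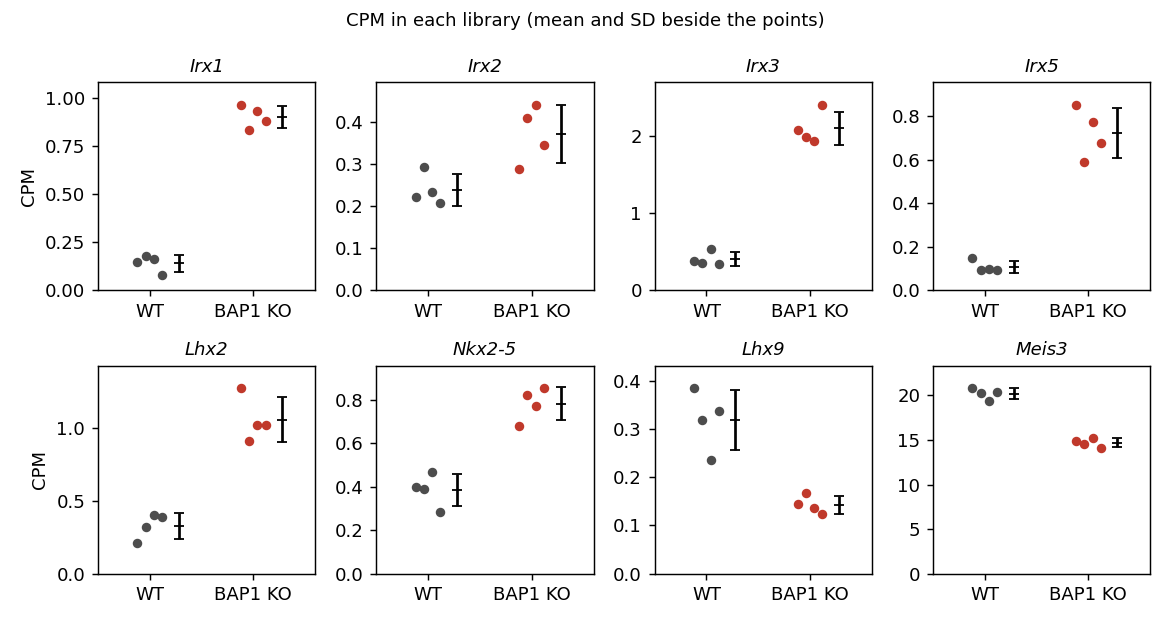
CPM in each library for 8 members, with 1 point per library and the mean and SD (n = 4) beside the points. The groups do not overlap in any of the panels except Irx2.

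The NK genes include regulators of the heart and of the mesenchyme around gut and spleen, and 2 of the 3 tested members of 5 rose. Nkx2-5, a heart regulator that also acts in the spleen, measured 0.399, 0.388, 0.469 and 0.286 CPM in WT against 0.679, 0.822, 0.773 and 0.855 CPM in BAP1 KO. The groups did not overlap and the log2 fold change was 1.02 ± 0.19 (adjusted p = 3e-05). Nkx3-2 (Bapx1), which acts in the stomach wall, spleen and axial cartilage, measured 3.77, 4.18, 4.08 and 5.23 CPM across WT and 5.5, 5.19, 6.4 and 6.19 CPM in BAP1 KO, where WT replicate 4 lay just above BAP1 KO replicate 2 (0.43 ± 0.09, adjusted p = 9.5e-05). Nkx2-3, a gut and spleen mesenchyme gene, went from 1.24 ± 0.183 to 1.49 ± 0.276 CPM and did not pass (0.26 ± 0.14, adjusted p = 0.11); without BAP1 KO replicate 1 it passed, at 0.37 and an adjusted p of 0.02, the lowest of its alternatives. The summed NK level was 5.96 ± 0.666 CPM in WT libraries and 8.13 ± 0.827 CPM in BAP1 KO, 136% of WT.

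The MEIS and PBX genes, partners of Hox proteins, carried 200 ± 1.93 CPM in WT against 197 ± 2.07 CPM in BAP1 KO, and their members moved by small amounts in both directions. Meis3 changed most: it measured 20.8, 20.2, 19.3 and 20.3 CPM across WT and 14.9, 14.5, 15.2 and 14.1 CPM in BAP1 KO, 72.7% of WT (-0.46 ± 0.04, adjusted p = 4.4e-11). Its groups were far apart relative to their spread. Meis2 measured 64.4, 64.3, 65.3 and 64.8 CPM in WT libraries and 68.5, 68.2, 67.1 and 68.2 CPM in BAP1 KO, without overlap (0.07 ± 0.03, adjusted p = 0.015). With library totals alone as the scale Meis2 was 0.06 higher and lost its call (adjusted p = 0.055, the highest of its alternatives). Meis1, at 57.4, 53.5, 56.3 and 54.7 CPM in WT against 52.3, 54.3, 53.1 and 53.4 CPM in BAP1 KO, did not pass (-0.06 ± 0.03, adjusted p = 0.081), and did pass with upper quartile factors, with library totals alone and without WT replicate 2 (-0.08 to -0.07, adjusted p = 0.031 to 0.047). Meis2 and Meis3 thus changed in opposite directions.

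Pbx2 measured 39.4, 39.97, 40.3 and 40.9 CPM across WT and 41.5, 43.0, 42.0 and 44.5 CPM in BAP1 KO, without overlap (0.09 ± 0.03, adjusted p = 0.013), and lost its call without BAP1 KO replicate 4 (0.07, adjusted p = 0.061). Pbx2 shares 227 bases of exon on the same strand with Gpsm3, which was at 56.3 CPM in WT libraries and 56.4 CPM in BAP1 KO libraries (adjusted p = 0.94). Pbx3 measured 20.7, 20.2, 19.8 and 19.01 CPM in WT against 18.6, 19.6, 18.01 and 18.4 CPM in BAP1 KO, with overlapping groups (-0.10 ± 0.04, adjusted p = 0.038). RLE factors, DESeq2 and leaving out WT replicate 1, 2 or 3 or BAP1 KO replicate 1, 3 or 4 each removed its call, with log2 fold changes of -0.10 to -0.08 and adjusted p of 0.057 to 0.11.

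The mesenchymal regulators Prrx1, Prrx2, Barx1 and Hlx all stayed within a 1.5-fold change. Prrx1, a limb and craniofacial gene used as a marker of fibroblasts, measured 169, 170, 160 and 160 CPM across WT and 145, 153, 158 and 156 CPM in BAP1 KO (log2 fold change -0.10 ± 0.03, adjusted p = 0.0011). The highest BAP1 KO library lay just below the lowest WT library. Prrx2 measured 16.4, 18.3, 17.4 and 17.3 CPM in WT libraries and 17.2, 15.3, 15.8 and 17.4 CPM in BAP1 KO and did not pass (-0.08 ± 0.05, adjusted p = 0.13). Hlx, needed for gut and liver growth, measured 26.1, 28.3, 27.0 and 28.2 CPM in WT against 24.8, 24.0, 24.1 and 25.1 CPM in BAP1 KO, without overlap (-0.16 ± 0.04, adjusted p = 0.00028). Barx1, which directs stomach and spleen mesenchyme, measured 79.2, 87.0, 90.03 and 92.0 CPM across WT and 95.0, 94.4, 89.1 and 93.8 CPM in BAP1 KO (log2 fold change 0.09 ± 0.04, adjusted p = 0.024). WT replicate 1 was the lowest of the 8, the groups overlapped, and the call was lost with library totals alone and without WT replicate 1 or 2 or BAP1 KO replicate 1, 2 or 4, where the log2 fold change was 0.05 to 0.09 and the adjusted p 0.052 to 0.10. The summed fibroblast and stromal markers given above were also lower in BAP1 KO, while Barx1 was not; their part in the changes of Prrx1 and Hlx was not tested. Alx4, a limb and skull gene, measured 0.917, 1.14, 0.758 and 1.13 CPM in WT libraries and 1.39, 1.16, 1.29 and 1.53 CPM in BAP1 KO (log2 fold change 0.43 ± 0.14, adjusted p = 0.011), and lost its call without WT replicate 3 (0.32, adjusted p = 0.060). Pitx1, a hindlimb gene, went from 0.675 ± 0.112 to 0.690 ± 0.204 CPM and did not pass (0.02 ± 0.20, adjusted p = 0.95).

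**Figure D5:**
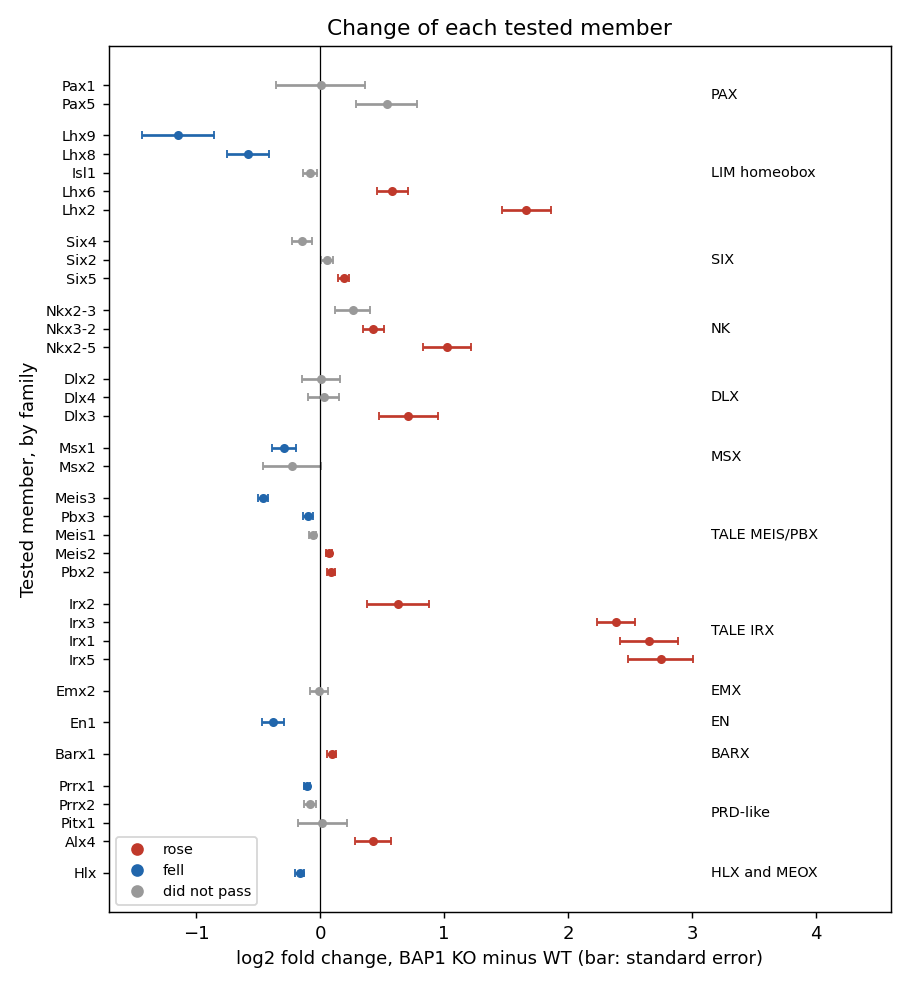
Log2 fold change (BAP1 KO minus WT) with SE for the 35 tested members, grouped by family and coloured by call. The IRX genes stand to the right, the LIM genes spread to both sides, and the MEIS and PBX genes lie within 0.46 of 0.

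Of the sine oculis genes, partners of EYA in muscle, kidney and eye, Six5 measured 13.6, 13.4, 13.9 and 14.0 CPM in WT against 15.4, 15.2, 15.7 and 16.4 CPM in BAP1 KO and rose without overlap (0.19 ± 0.04, adjusted p = 0.00032). Six2, a kidney progenitor gene, measured 12.6, 13.4, 13.5 and 13.3 CPM across WT and 13.3, 13.7, 13.0 and 14.9 CPM in BAP1 KO and did not pass (0.06 ± 0.05, adjusted p = 0.31). Six4 was 3.91 ± 0.360 and 3.54 ± 0.112 CPM (-0.15 ± 0.08, adjusted p = 0.12), and passed without WT replicate 1 (-0.20, adjusted p = 0.034). En1, a hindbrain and limb gene also known from skin fibroblasts, fell without overlap: it measured 4.13, 3.66, 3.3 and 3.39 CPM in WT libraries and 2.6, 2.79, 2.72 and 2.99 CPM in BAP1 KO (log2 fold change -0.38 ± 0.09, adjusted p = 0.00039). Msx1, an effector of BMP signalling in limb and tooth, measured 3.67, 2.89, 2.58 and 3.18 CPM in WT against 2.37, 2.59, 2.45 and 2.62 CPM in BAP1 KO (log2 fold change -0.29 ± 0.10, adjusted p = 0.011). Its groups overlapped, and without WT replicate 1, the highest library, the log2 fold change was -0.20 and the adjusted p 0.076. Its relative Msx2 was 0.453 ± 0.108 and 0.390 ± 0.0905 CPM and did not pass (-0.23 ± 0.23, adjusted p = 0.41).

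The DLX genes are paired on their chromosomes and pattern jaw, brain and limb. Dlx3, of skin and placenta, was the riser among 3 tested members of 6, at 0.222, 0.365, 0.331 and 0.234 CPM across WT and 0.433, 0.436, 0.577 and 0.455 CPM in BAP1 KO (log2 fold change 0.71 ± 0.23, adjusted p = 0.0093). Its neighbour Dlx4, 20 kb away, was 1.31 ± 0.138 and 1.34 ± 0.159 CPM (0.03 ± 0.13, adjusted p = 0.86). The Dlx3 to Dlx4 ratio differed by 0.66 on the log2 scale, with -2.12 ± 0.20 (SD) in WT and -1.45 ± 0.16 in BAP1 KO (exact two-sided permutation test, p = 0.029, adjusted p = 0.043 over 3 pairs). Dlx2 was 1.06 ± 0.221 and 1.06 ± 0.132 CPM (0.01 ± 0.15, adjusted p = 0.98). Emx2, a forebrain and urogenital gene, was 5.40 ± 0.366 and 5.38 ± 0.497 CPM and did not pass (-0.01 ± 0.07, adjusted p = 0.96). Its antisense partner Emx2os, which shares 264 bases of exon and which this unstranded kit cannot separate there, fell from 2.39 to 1.88 CPM (-0.34 ± 0.11, adjusted p = 0.0092). Both tested PAX genes, Pax1 (sclerotome and thymus; 0.00 ± 0.36, adjusted p = 0.99) and Pax5 (B cells; 0.54 ± 0.25, adjusted p = 0.058), did not pass. Pax5 went from 0.327 ± 0.0714 to 0.470 ± 0.140 CPM and passed without WT replicate 3 (0.65, adjusted p = 0.044) and without BAP1 KO replicate 1 (0.69, adjusted p = 0.018), on an adjusted p of 0.018 to 0.24 over its alternatives. The 5 lymphocyte markers summed to 4.08 to 4.40 CPM in WT libraries and 2.41 to 2.61 CPM in BAP1 KO.

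The 20 members that were not tested had at most 11 counts in any library. En2, a midbrain gene, had 1, 0, 2 and 1 counts in the WT libraries and 8, 9, 5 and 3 in the BAP1 KO libraries, with every BAP1 KO library above every WT library. Pax2, a kidney and eye gene, had 0 counts in the WT libraries and 3 in each BAP1 KO library, which is at least 3.97-fold higher when 3 counts over the WT group stand for its 0. Pax6, of eye and pancreas, had 1, 2, 1 and 5 counts in WT and 11, 6, 4 and 7 in BAP1 KO. Lhx1, of kidney and Müllerian duct, had 1 count summed over WT and 13 over BAP1 KO, 8 of them in BAP1 KO replicate 2. Barx2 had 6 and 19 counts summed over the 4 libraries. Others pointed the other way: Pax8, of thyroid and kidney, had 25 and 10 counts, Dlx1 20 and 9, Meox2 10 and 2, Alx1 3 and 0, and Dlx5 9 and 1, 8 of the 9 in WT replicate 4. The other 10 (Pax3, Pax7, Pax9, Lhx5, Six3, Nkx2-2, Nkx6-1, Dlx6, Irx4 and Emx1) had no more than 12 counts summed over a genotype. Without the filter on low counts, edgeR called Pax2 (adjusted p = 0.0047), En2 (0.011), Lhx1 (0.023) and Pax6 (0.049), all higher in BAP1 KO. That fit called 10515 genes over all genes. The share called among genes at so few counts is not given here, so these calls describe the named members alone. DESeq2 called En2 (adjusted p = 0.018) and did not call Lhx1 (0.06) or Pax6 (0.066), and gave no adjusted p for Pax2.

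Promoter sequences were found for 41 of the 55 members, at 48 starts, in the RefSeq table of GRCm38.p6. The median number of CpG in the 250 bases before the start was 15 for members, beside 14 for promoters of tested genes and 6 for all promoters. At least 10 CpG were present in 79.2% of member promoters, 64.9% of those of tested genes and 37.8% of all. Promoters of members that rose had a median of 17 CpG, those of members that did not pass 17.5, and those of members that fell 11, with Lhx9 at 4. A listed start can lie inside the span of its gene, as for Irx2 and Lhx9. The homeodomain motif TAATTA, searched on both strands, was in 2 of 48 member promoters and in 4.84% of all promoters of this length. TGACAG, a MEIS motif, was in 10 of 48 and in 15.9% of all. ACANNTGT, a motif bound by Iroquois proteins, was in 1 of 48 and in 6.31% of all; it can share letters with TGACAG. None of these motifs is in the printed promoters of Irx3, Irx2 and Lhx2, and TGACAG is in that of Lhx9; a match is a description of letters only.

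Other non-Hox homeobox genes and known cofactors give the members their setting. Of 121 further homeobox genes, 53 were tested, of which 19 rose, 14 fell and 20 missed the threshold, the median log2 fold change being 0.03. The share called, 62.3%, was near the 61.1% of all genes tested. Prox1, of lymphatic endothelium and liver, rose by 0.53 ± 0.13 on the log2 scale, and Pou2f2, of B cells and macrophages, by 0.41 ± 0.06. Among those with a mean of at least 1 CPM in a genotype, the largest falls were of Hopx, an atypical homeodomain protein that does not bind DNA (1.72 ± 0.105 to 0.609 ± 0.0348 CPM, -1.50 ± 0.14), Mkx, a tendon gene (1.248 ± 0.220 to 0.455 ± 0.142 CPM, -1.44 ± 0.19), Zfhx2 (-0.79 ± 0.08) and Vax2 (-0.46 ± 0.12).

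Of 23 cofactors, all tested, 8 rose, 7 fell and 8 missed the threshold, the median being 0.02. With 65.2% called, beside 61.1% of all genes tested, the cofactors were also near the background. Ldb2, a LIM adaptor, fell from 4.10 ± 0.316 to 0.864 ± 0.148 CPM (-2.24 ± 0.11, adjusted p = 3.7e-17). Ssbp4, which stabilises LDB proteins, rose by 0.16 ± 0.05 (adjusted p = 0.015), and lost its call without BAP1 KO replicate 4 (0.15, adjusted p = 0.050). Among partners of sine oculis proteins, Dach1 fell from 1.21 ± 0.132 to 0.455 ± 0.1505 CPM (-1.40 ± 0.18, adjusted p = 9.2e-08) and its paralogue Dach2 rose (1.17 ± 0.21, adjusted p = 1.7e-05). Eya3 and Eya4 fell (-0.13 ± 0.03 and -0.23 ± 0.05), Eya1 rose (0.74 ± 0.20) and Eya2 did not pass (-0.06 ± 0.05). Of the 6 genes listed from the Groucho family, Tle5 rose (0.20 ± 0.02) and Tle2 fell (-0.93 ± 0.09).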

How the data were processed

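RNA of 8 libraries (4 WT, 4 BAP1 KO, grouped by genotype in the labels) was analysed. Per the labels' protocols, polyA libraries were made with a TruSeq kit that does not mark strand. The submitters' processing notes name GSNAP and GRCm38, and the version, annotation and strand setting of counting are not given. The deposited counts are whole reads per Entrez gene, per the file headers. The authors' RPKM carry a size-factor adjustment, again per the file headers; RPKM served only to order genes by level. Symbols came from RefSeq (31049 of 36528 identifiers) and GENCODE vM21 (78); 5401 had none.

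Counts were tested with edgeR 4.0.16 in R 4.3.3 (quasi-likelihood F test, robust, TMM factors, filterByExpr, Benjamini-Hochberg, threshold 0.05), and the code was tested on simulated data. Positive log2 fold changes are higher in BAP1 KO and carry an SE; CPM use TMM-adjusted totals. Whether libraries are separate animals or cultures is not stated, so p-values cover the spread among the 8 libraries alone, possibly a technical one. Alternatives were DESeq2 1.42.0, limma 3.58.1 (voom), other factors and filters, and leaving out each library. The members and lists were chosen with earlier results of these data known. Values in every library are given for members of at least 1 CPM in a genotype that passed and for members of at least 10 CPM that did not; further homeobox genes and cofactors are the largest changes that passed at 1 CPM or more (some are not reported here), and others named were chosen after their values were seen. Where replicates are numbered, the number follows accession order.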

Additional observations from a re-analysis of the deposited data

Results flagged for a closer look

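Of 94 groups of 4 libraries, 3 held a library far from the other 3, which chance gives in about 1 of 20 groups. Dlx3 in BAP1 KO stood at 0.577 CPM in replicate 3, with the others at 0.433 to 0.455 CPM. Irx5 in WT stood at 0.148 CPM in replicate 1, with the others at 0.0908 to 0.0965 CPM. Mkx in BAP1 KO stood at 0.668 CPM in replicate 2, with the others at 0.372 to 0.405 CPM. In each case the library was the highest of its group, and the replicate concerned differed from gene to gene.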

How the results depend on the processing

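No paired analysis was possible because the labels give no replicate numbers. Under every factor, filter and tool tried, and without each library, the members that stayed called kept their direction. Of 22 members called (14 rose, 8 fell), 14 were called with a filter of more than 1 CPM in at least 4 libraries, with 8 rises and 23 members tested, and 5 were called against a 1.5-fold change (5 rises, 0 falls: Irx1, Irx3, Irx5, Lhx2 and Nkx2-5). Irx1 and Irx5 were tested through their level in BAP1 KO alone. Over all genes, 10340 of 16929 were called in the main fit and 1384 of 16929 against a 1.5-fold change. With the 1 CPM filter 9343 genes were called. Against a 1.5-fold change 3 other homeobox genes were called (0 rises, 3 falls) and 4 cofactors (1 rise, 3 falls). The cofactors that rose were 5 with upper quartile factors, library totals alone or the 1 CPM filter. Without each library, 19 to 22 members were called (12 to 15 rises, 7 to 8 falls), and 4 to 8 cofactors rose. The same fits called 9822 to 10253 genes over all genes. Among genes that did not pass, signs near 0 changed: the Pax1 log2 fold change was -0.0050 with upper quartile factors, -0.011 with library totals, -0.000498 without a filter and -0.074 with limma-voom; the Dlx2 log2 fold change was -0.00226 with upper quartile factors and -0.00856 with library totals; the Emx2 log2 fold change was 0.0043 with RLE factors and 0.0032 with DESeq2; the Pitx1 log2 fold change was -0.0189 with limma-voom. Without each library, Pax1 ran from -0.15 to 0.24, Dlx2 from -0.11 to 0.087, Dlx4 from -0.026 to 0.094, Emx2 from -0.068 to 0.033 and Pitx1 from -0.16 to 0.16. The difference between the log2 ratios of Irx3 and Irx5 was 0.039 with a prior count of 5, and -0.31 to 0.0083 without each library; the differences for Dlx3 and Dlx4 (0.60 to 0.73) and Irx1 and Irx2 (1.78 to 2.02) kept their direction, but 3 against 4 libraries cannot reach the threshold. The cause of these changes was not tested, except that fewer genes are tested under the 1 CPM filter. Depth limits the members at a few counts per library.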
